A study of Chilo suppressalis with 6 samples.

Results

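The 100 most abundant transcripts of *C. suppressalis* larvae are described here. *C. suppressalis*, the striped rice stem borer, is a moth whose caterpillars feed inside rice stems. Members were the 100 genes with the highest mean FPKM over all 6 libraries, after genes with the same FPKM in every library had been counted once. FPKM counts sequenced fragments relative to gene length and library size, so levels of different genes can be compared per length. The table held 38966 genes, of which 33948 remained with identical values counted once. Of the 5018 rows removed, 538 had FPKM above 0, and the others were 0 in every library. The mean over both groups chose the members, so their high level is a description and not a finding. The last member was evm_002961, with a mean of 2490.1 FPKM, and the first gene left out was evm_009729, with a mean of 2471 FPKM. evm_002961 had 1410.1, 2484 and 5539.8 FPKM in Eβf replicates 1 to 3, against 1965, 2852 and 691 FPKM in control replicates 1 to 3. evm_009729 had 4589.6, 326 and 571 FPKM in the Eβf group against 3984, 3322 and 2033 FPKM in the control. Both ranged widely, with overlapping groups.

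The Eβf group comprised larvae of a laboratory sensitive population fed until the 3rd instar on an artificial diet with 0.8 g/kg (E)-β-farnesene (Eβf), a sesquiterpene that rice releases under caterpillar attack. The control group comprised larvae of the same population and instar that received the diet with the solvent. Each group had 3 libraries of poly(A) RNA from the 3rd instar, and 6 larvae are named for the RNA extract without saying whether each library pooled them. The libraries are named TFN and TYC in the table, codes that are not spelled out, and every direction given here rests on reading TFN as farnesene and TYC as the solvent control. The study calls the libraries biological replicates and does not say how many days into the instar the larvae were. Nothing states that the libraries came from separate cultures, so p-values measure the spread between these libraries.

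In a whole caterpillar, the most abundant messenger RNAs usually come from a small number of specialised products. Known examples in moths are digestive enzymes of the midgut, cuticle proteins of the epidermis, storage proteins and lipid carriers of the fat body, silk proteins of the labial glands, and the proteins of muscle and ribosomes. Their levels shift with feeding and with the time since the last moult, which juvenile hormone and ecdysteroids control. The deposited table gives IDs without names, and 0 of the 100 member IDs were found in the reference table of 11366 genes of this species. No member is therefore described by its function, and neither the larval tissue nor any cell type could be checked against marker genes. RNA from whole larvae cannot tell fewer cells of a tissue from less RNA per cell.

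Of the members, 84 carried IDs of annotated gene models (evm) and 16 carried IDs of loci assembled by StringTie (MSTRG). Among the 11932 rows with FPKM at or over 1 in at least 3 of 6 libraries, 53.3% were gene models. All 100 members passed this requirement. In the group of 10 members that shared all 6 values with another ID, evm_012353 had the same values as evm_012354, evm_003665 the same as MSTRG.6569 and evm_010453 the same as evm_010454. The level of such a member cannot be assigned to 1 of its IDs. Consecutive ID numbers linked 16 members into 8 pairs, and the sources used here do not say whether the numbers follow the order on the genome.

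The total FPKM of a library lay between 1516231.1 and 1622668.2 with identical values counted once. Relative to control replicate 1, depth read from the steps in the lowest values was 0.966 to 1.52. In the study's sequencing summary, both libraries numbered 3 had the lowest shares of aligned reads and of high-quality bases. The share of G and C bases was highest in control replicate 3 and lowest in Eβf replicate 3. Whether this bears on the levels of these 2 libraries was not tested. Control replicate 3 stood apart among the members. Over the 100 members, the correlation of log2(FPKM + 1) was 0.96 between control replicates 1 and 2, and 0.33 between control replicate 3 and each of them. Control replicate 3 helped to choose the list, and 4 members held over 80% of their FPKM in that library and were not members without it. What these members contribute to its correlation with the other libraries was not computed. Of the 100 most abundant genes of each library, control replicate 3 shared 66 and 63 with control replicates 1 and 2, which shared 83. Within the Eβf group the correlation over the members was 0.55 to 0.80. Eβf replicate 1 had a correlation of 0.55 with Eβf replicate 2 and 0.61 with Eβf replicate 3, and of 0.78 with control replicate 1 and 0.73 with control replicate 2. The order was the other way round for the 100 most abundant genes of each library, of which Eβf replicate 1 shared 78 and 76 with Eβf replicates 2 and 3, and 74 and 73 with control replicates 1 and 2. These are correlations across genes, which are not independent replicates.

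The members took most of the FPKM of every library. Their share was 66.3%, 61.6% and 53.3% in Eβf replicates 1 to 3, against 66.8%, 65.4% and 63.6% in control replicates 1 to 3. Eβf replicate 3 had the lowest share of the 6 libraries, and the groups overlapped. The mean was 60.4% ± 6.59 (SD, n = 3) in the Eβf group and 65.3% ± 1.61 (SD, n = 3) in the control, a difference of -4.87 percentage points (two-sided exact permutation p = 0.3). With 3 libraries in each group, this test cannot give a p under 0.1. The difference was -9.50 percentage points when Eβf replicate 1 was left out, -3.00 when Eβf replicate 3 was and -3.32 when control replicate 1 was, with members chosen anew each time. It was 1.76 percentage points, the opposite direction, when members were chosen by the Eβf mean alone. When they were chosen by the control mean alone it was -11.01. Choosing by the mean of 1 group favours the share of that group. These 2 shifts were therefore built into the choice and are not checks of the difference.

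**Figure D1:**
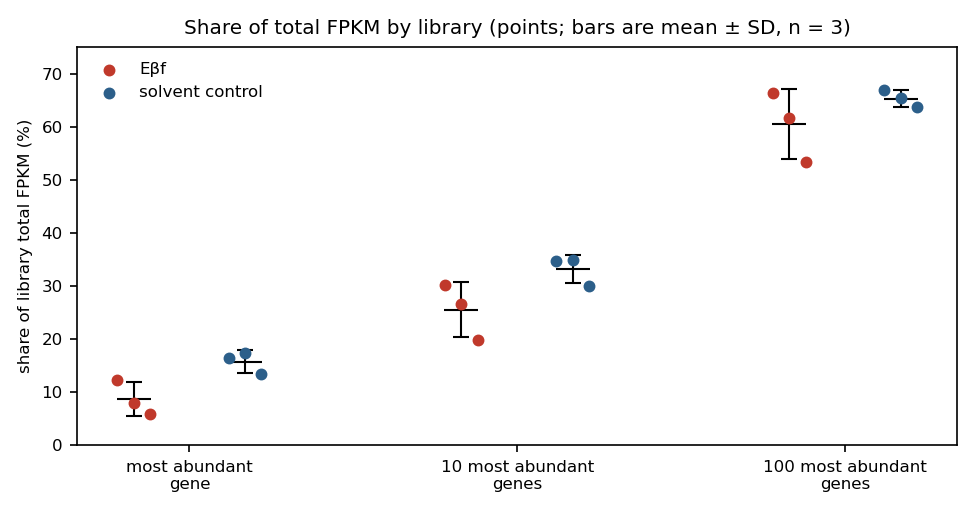
Share of each library's total FPKM (%) taken by the most abundant gene, the 10 most abundant genes and all 100 members. Points are libraries, Eβf left and solvent control right of each position, with the mean and SD (n = 3) as bars; the groups do not overlap for the most abundant gene, where Eβf lies at 5.84% to 12.3% and the control at 13.4% to 17.4%, and they overlap for all 100 members.

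The gap between the groups lay at the head of the list. MSTRG.19760, which ranked first, made up 12.3%, 7.95% and 5.84% of the FPKM of Eβf replicates 1 to 3, against 16.4%, 17.4% and 13.4% in control replicates 1 to 3. All 3 Eβf libraries lay below all 3 control libraries, a difference of -7.05 percentage points (exact permutation p = 0.1, the smallest this design allows). The 10 most abundant members took 30.1%, 26.6% and 19.8% in the Eβf group, against 34.7%, 34.8% and 30.0% in the control. Eβf replicate 1 overlapped control replicate 3, and the difference was -7.65 percentage points (exact permutation p = 0.2). It was -4.80 without Eβf replicate 3 and -3.95 without control replicate 1. Ranks 11 to 100 took 34.9% ± 1.35 (SD, n = 3) in the Eβf group and 32.1% ± 1.49 (SD, n = 3) in the control, a difference of 2.79 percentage points in the other direction (exact permutation p = 0.2). Of the 8 such comparisons made, the lowest exact permutation p adjusted by Benjamini-Hochberg was 0.32.

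By the number of genes needed to reach 50% of the FPKM, the Eβf libraries were less concentrated. It took 34, 44 and 70 genes, ranked within the library, to reach 50% of the FPKM of Eβf replicates 1 to 3. In control replicates 1 to 3 it took 27, 27 and 30 genes, so the groups did not overlap. This difference was not tested. By the share of the 200 genes with the highest mean FPKM, the groups overlapped. That share was 76.9%, 72.7% and 65.8% in Eβf replicates 1 to 3, against 76.6%, 74.9% and 73.7% in control replicates 1 to 3. The FPKM of the genes outside the 100 members summed to 528008, 623191 and 735748 in Eβf replicates 1 to 3, against 505161, 524989 and 588796 in control replicates 1 to 3, and these groups overlapped.

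**Figure D2:**
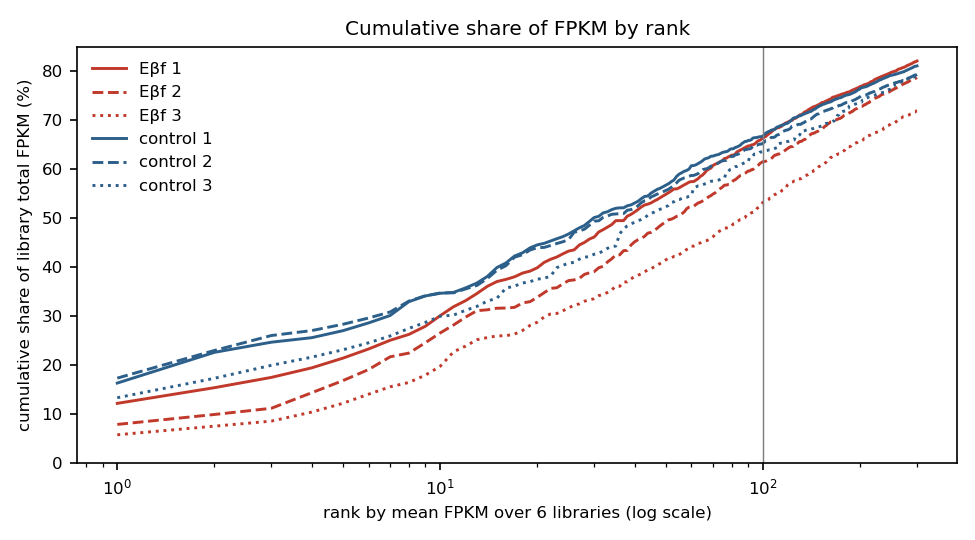
Cumulative share of each library's total FPKM (%) against rank by mean FPKM over 6 libraries (log scale), for ranks 1 to 300. Red lines are Eβf libraries, blue lines solvent control libraries, and the grey line marks rank 100; Eβf replicate 3 runs below the other libraries, at 53.3% by rank 100.

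Membership differed between libraries. Of the 100 members, 84, 79 and 79 were among the 100 most abundant genes of Eβf replicates 1 to 3, against 76, 77 and 74 in control replicates 1 to 3. In all 6 libraries this held for 45 members, and 4 members reached the top 100 of 1 library. Ranked by group means, 71 members were in the top 100 of both groups, 16 in that of the Eβf group alone and 13 in that of the control alone. A member of the last 2 kinds had to differ between the groups to be one, so the counts of members that differ are descriptions. The list kept 92 to 97 of its members when any 1 library was left out and 86 when genes were ranked by the mean of log2(FPKM + 1).

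The 2 most abundant members were lower in every Eβf library than in any control library. MSTRG.19760 had FPKM values of 192142, 129044 and 91992.5 in Eβf replicates 1 to 3, against 249747, 263924 and 216904 in control replicates 1 to 3. Its mean was 3.21 times that of the next gene and 76.6 times that of the last member. Its log2 fold change was -0.88 (standard error, SE, 0.27 and limma adjusted p = 0.155), which did not pass the threshold of 0.05. Fold changes here are on the log2(FPKM + 1) scale, Eβf over control, with p-values adjusted by Benjamini-Hochberg over all 11932 rows tested. evm_002965 had FPKM values of 50222, 32961 and 27514 in Eβf replicates 1 to 3, against 95584, 85623 and 64246 in control replicates 1 to 3. Its log2 fold change was -1.18 (SE 0.28, limma adjusted p = 0.0813), and the call was missed there too. evm_012353, ranked 8, showed the same order, with 18767, 12401 and 13911 FPKM in the Eβf group against 42993, 33730.2 and 24895 FPKM in the control (log2 fold change -1.16, limma adjusted p = 0.0893).

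Of the other members among the first 10, 6 lay higher in every Eβf library than in any control library. evm_012298, ranked 10, had FPKM values of 33829.5, 32197 and 28276 in Eβf replicates 1 to 3, against 8212, 8405 and 20344 in control replicates 1 to 3. Control replicate 3 was the highest control here. Its log2 fold change was 1.48 (SE 0.38, limma adjusted p = 0.0959), and without control replicate 3 it was 1.92 and passed (limma adjusted p = 0.0155, range over the alternatives 0.00123 to 0.393). evm_007011, ranked 4, had 30531, 51423 and 28998 FPKM in the Eβf group against 14018, 15288 and 26893.5 FPKM in the control. The remaining 4, evm_003584, evm_005803, evm_003350 and evm_008051, had log2 fold changes of 0.51 to 0.61 and were highest in Eβf replicate 2. For evm_005803 the values were 29228, 36534 and 29097 FPKM in the Eβf group against 24061, 19309 and 22853 FPKM in the control. For evm_003350 they were 27908, 42178 and 23890.2 FPKM in the Eβf group against 23074, 18648 and 22763 FPKM in the control, and for evm_008051 26114, 34376 and 23610.5 FPKM in the Eβf group against 17905, 16612 and 19878 FPKM in the control. Of these 3, the nearest Eβf and control libraries were closest in evm_003350, at 23890.2 and 23074 FPKM. They were 29097 and 24061 FPKM in evm_005803, and 23610.5 and 19878 FPKM in evm_008051. In evm_009495, ranked 3, the groups overlapped, with 32881, 20485 and 16417 FPKM in the Eβf group against 31508, 46187 and 42806 FPKM in the control. With all 6 libraries weighted equally, none of the 10 passed the threshold (adjusted p of 0.0813 to 0.449 from limma). With a weight estimated for each library, all 10 passed (adjusted p of 0.00123 to 0.0371 from limma), as did 16.2% of all rows as higher and 16.9% as lower.

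**Figure D3:**
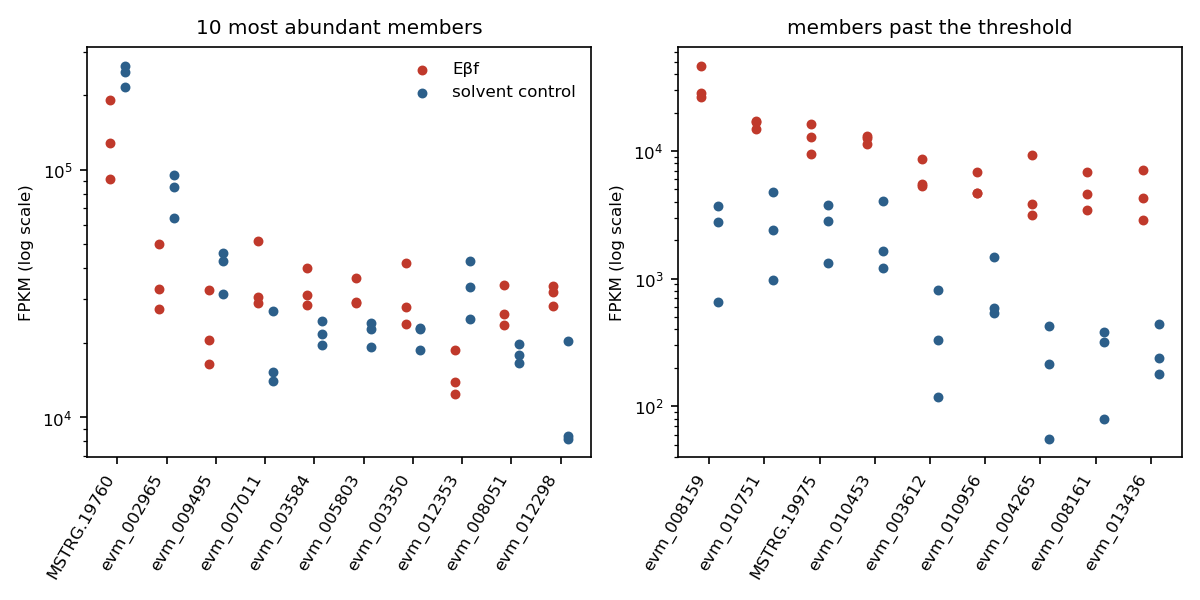
FPKM (log scale) of the 10 most abundant members, left, and of the 9 members past the threshold, right, with 3 Eβf libraries in red, left of each position, and 3 solvent control libraries in blue, right of it. Each of the 9 members on the right has its 3 Eβf libraries above its 3 control libraries, with evm_008159 at 26402 to 46587 FPKM after Eβf and 652 to 3735 FPKM in the control.

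At an adjusted p under 0.05 from limma, 9 members were higher after Eβf and 0 were lower. Over all 11932 rows tested, 1.53% were higher and 0.528% were lower, 2.05% in all. With quantile normalization these shares of the rows were 1.54% and 1.27%, with median-of-ratios scaling 1.82% and 1.06%, and with scaling to the total outside the members 1.79% and 0.981%. In that order, 9, 3 and 5 members were called higher, and 0 were called lower in each. Of the 9 members, 4 were in the top 100 of both group means, and the other 5 were in that of the Eβf group alone, so that their difference is partly built into the list. At an unadjusted p under 0.05, 28 members were higher and 17 lower, against 8.83% and 6.71% of the rows tested. The median log2 fold change of the members was 0.45, against 0.16 over all rows tested, and 67 of the members had one above 0, against 58.3% of the rows. The median of the members was 0.41 with median-of-ratios scaling, 0.23 with quantile normalization and 0.24 with scaling to the total outside the members. The 9 calls depended on single libraries, as did the calls over all rows. None of the 9 passed without Eβf replicate 1, 2 or 3 or without control replicate 2, where 0 members were higher at this threshold. The shares of all rows called higher there were, in that order, 0.578%, 0.0251%, 0.0335% and 0.00838%. Without control replicate 1, 4 of the 9 passed (0.201% of all rows higher). Without control replicate 3, 6 of the 9 passed, among 8 members in all (2.02% of all rows higher). With median-of-ratios scaling evm_004265, evm_008161 and evm_013436 passed. With a pseudocount of 0.01, evm_013436 was the one that passed (0.285% of all rows higher).

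evm_008159, ranked 11, was the most abundant of the 9. It had FPKM values of 28626, 26402 and 46587 in Eβf replicates 1 to 3, against 2765, 652 and 3735 in control replicates 1 to 3. Its log2 fold change was 4.12 (SE 0.64, limma adjusted p = 0.0304). evm_008161, ranked 96, followed it in the order of the libraries, with Eβf replicate 3 highest and control replicate 2 lowest. It had FPKM values of 4575, 3424 and 6807 in the Eβf group, against 318, 79.98 and 384 in the control, and its log2 fold change was 4.46 (SE 0.63, limma adjusted p = 0.0304). evm_004265, ranked 89, also had its highest level in Eβf replicate 3 and its lowest in control replicate 2. Its FPKM was 3139, 3824 and 9315 in Eβf replicates 1 to 3, against 213, 55.8 and 425 in control replicates 1 to 3, and its log2 fold change of 4.80 (SE 0.78, limma adjusted p = 0.0342) was the highest of the 100 members.

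evm_010751, evm_010453 and MSTRG.19975 had a control mean above the 2285 FPKM that bounded the control's own top 100. For single libraries this bound was 2125, 2031 and 2574 FPKM in control replicates 1 to 3. evm_010751 and evm_010453 passed it in control replicate 1 alone, and MSTRG.19975 in control replicates 1 and 3. evm_010751, ranked 21, had FPKM values of 17125, 14974 and 16753 in Eβf replicates 1 to 3, against 4789, 973 and 2387 in control replicates 1 to 3 (log2 fold change 2.86, limma adjusted p = 0.0482). MSTRG.19975, ranked 31, had 16232, 12952 and 9479 FPKM in the Eβf group against 3789, 1315 and 2840.4 FPKM in the control (log2 fold change 2.38, limma adjusted p = 0.0457). In both, control replicate 2 was the lowest library and the groups stood apart. MSTRG.19974, the member with the preceding number, ran parallel to it (r = 0.996 over the 6 libraries on the log2 scale), with 6131, 5682 and 4149 FPKM in the Eβf group against 1625, 566 and 1431 FPKM in the control. Its adjusted p was 0.0552 from limma, and it did not pass. evm_010453, ranked 35, averaged 12354 ± 965 FPKM in the Eβf group and 2305 ± 1535 FPKM in the control (SD, n = 3 each), with a log2 fold change of 2.62 (limma adjusted p = 0.0393).

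The other 3 called members had a control mean below the 2285 FPKM that bounded the control's own top 100, as did evm_008161 and evm_004265. evm_003612, ranked 70, had FPKM values of 8586, 5347 and 5468 in Eβf replicates 1 to 3, against 329, 117 and 820.0 in control replicates 1 to 3 (log2 fold change 4.31, limma adjusted p = 0.0309). evm_010956, ranked 83, averaged 5432 ± 1252 FPKM in the Eβf group and 869 ± 530.4 FPKM in the control (SD, n = 3 each), with 2.78 as its log2 fold change (limma adjusted p = 0.035). evm_013436, ranked 99, was the one member among the 12 genes for which the study designed qPCR primers. It had FPKM values of 4297, 2859.9 and 7076 in Eβf replicates 1 to 3, against 445, 238 and 179.7 in control replicates 1 to 3, and the groups stood far apart. Its log2 fold change was 4.05 (SE 0.49, limma adjusted p = 0.0195), the lowest adjusted p of the members. evm_003612 shared its values with evm_003614, so these reads cannot be placed on 1 of the 2 IDs.

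**Figure D4:**
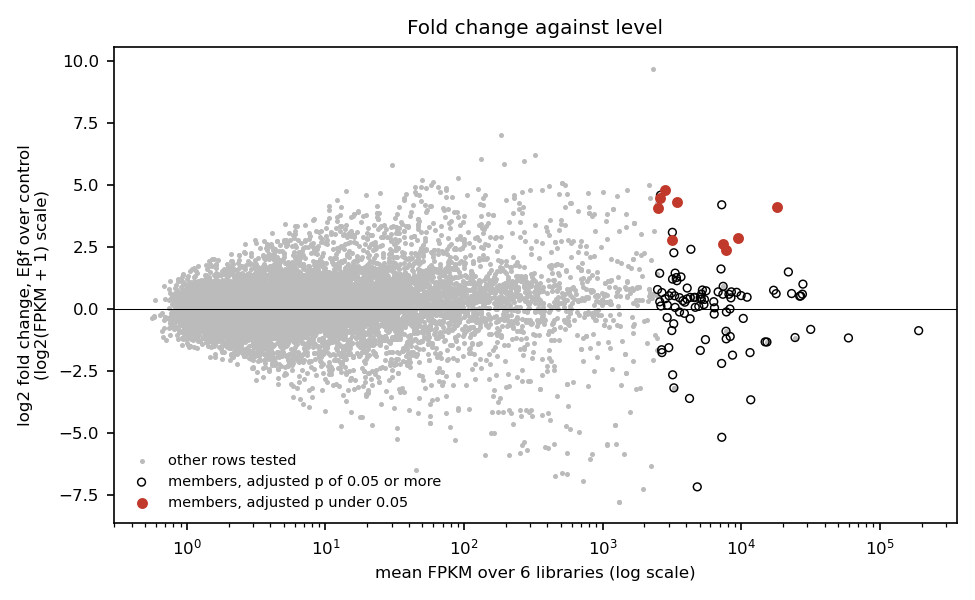
Log2 fold change, Eβf over control on the log2(FPKM + 1) scale, against mean FPKM over 6 libraries (log scale) for the 11932 rows tested. Open circles are members that did not pass, red points are the 9 members that passed, between 2.38 and 4.80, and grey points are the other rows, including IDs that share a member's values.

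Many more members had groups that did not overlap. In 42 members all Eβf libraries lay above all control libraries, and in 13 members all lay below. Over the rows tested these shares were 12.8% and 8.53%. Of the 42, 11 were in the top 100 of the Eβf mean alone, and of the 13, 6 were in that of the control mean alone. The 42 members together took 32.0% ± 3.12 of the FPKM in the Eβf group and 16.7% ± 1.84 in the control, and the 13 members took 13.5% ± 4.89 in the Eβf group and 29.4% ± 1.28 in the control (SD, n = 3 each). The other 45 members took 14.9% ± 1.89 in the Eβf group and 19.2% ± 1.56 in the control (SD, n = 3 each). Since the pattern chose these sets, their shares are descriptions. Of the 42, 27 had a log2 fold change under 1 and 12 one over 2. The count of 42 depended on the scaling of the libraries. It was 16 with median-of-ratios scaling (13.1% of the rows tested), 16 when libraries were scaled to the same total outside the members (10.3% of the rows) and 28 with quantile normalization (10.4% of the rows). Under the first 2 of these, the share of members above the control was near that of all rows. The count of 13 was 9 with median-of-ratios scaling (12.3% of the rows), 13 with scaling to the outside total (11.3%) and 11 with quantile normalization (14.8%). The median log2 fold change over all rows tested was 0.16 as deposited, 0.12 with median-of-ratios scaling, 0.01 with quantile normalization and -0.01 with scaling to the total outside the members.

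A block of members had the same highest and lowest library. In 28 members Eβf replicate 2 was the highest and control replicate 2 the lowest of the 6 libraries, against 3.26% of the rows tested, and 23 of the 28 had groups that did not overlap. The ratio of the highest to the lowest library was 1.46 to 10.8 in them, with a median of 2.05. This pattern moved with the scaling of the libraries, since 27 members showed it with median-of-ratios scaling (8.32% of the rows tested), 15 with scaling to the total outside the members (2.87%) and 5 with quantile normalization (5.90%). evm_003584, ranked 5, belonged to the block as deposited, with FPKM values of 31164, 40304 and 28378 in Eβf replicates 1 to 3, against 21829, 19558 and 24532 in control replicates 1 to 3. The part of library composition in this pattern was not tested further.

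**Figure D5:**
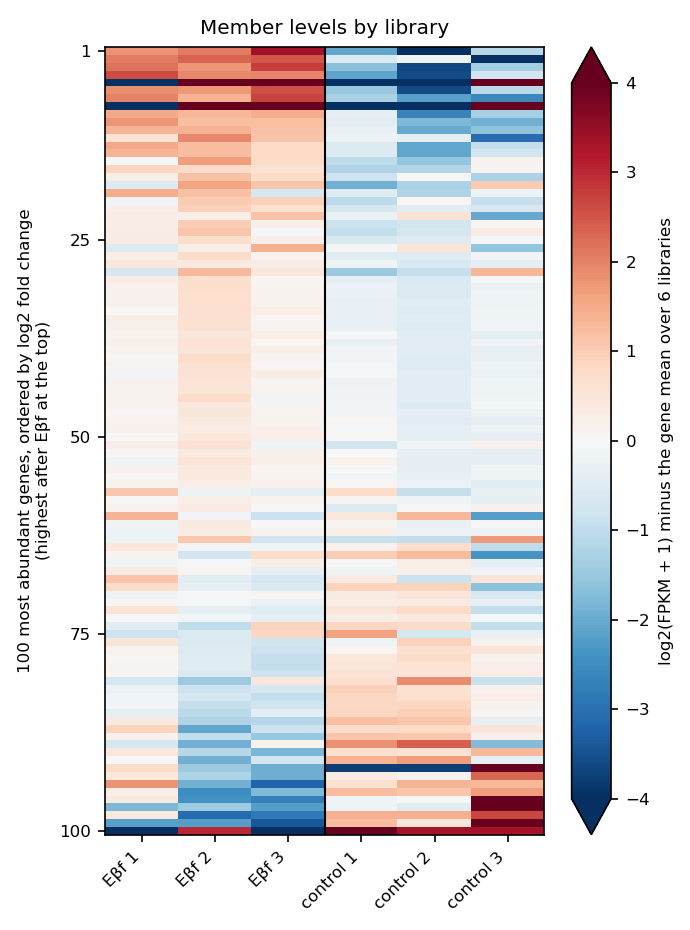
Level of each of the 100 members (rows, ordered by log2 fold change) in 3 Eβf libraries, left of the line, and 3 solvent control libraries, right of it, as log2(FPKM + 1) minus the gene's mean over 6 libraries. Colours are cut at -4 and 4; the middle of the list shows even, pale shifts, while single dark cells mark members that are very low or very high in 1 to 3 libraries.

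Among the 13 members that lay lower in every Eβf library, 0 passed the threshold (adjusted p of 0.0813 to 0.348 from limma). evm_010302, ranked 16, had FPKM values of 6943, 629 and 746 in Eβf replicates 1 to 3, against 14217, 14116 and 33620.1 in control replicates 1 to 3. Eβf replicate 1 and control replicate 3 were the high libraries of their groups. Its neighbour in number, evm_010303, had 7365, 2316 and 1427 FPKM in the Eβf group against 6951, 6194 and 27651 FPKM in the control, and there the groups overlapped. evm_001081 and evm_001082, another consecutive pair, averaged 4719.8 ± 1512 and 5504 ± 1777 FPKM in the Eβf group against 10859 ± 2746 and 10026 ± 1154 FPKM in the control (SD, n = 3 each). Without Eβf replicate 1, the members evm_010302, evm_009741 and MSTRG.19759 passed as lower (limma adjusted p of 0.0369, 0.0369 and 0.0471), and without control replicate 3, MSTRG.19777 did (limma adjusted p = 0.0276). Of all rows, 0.31% passed as lower without Eβf replicate 1 and 1.16% without control replicate 3. Over all alternatives the limma adjusted p ran between 0.00234 and 0.388 for evm_010302, 0.00237 and 0.378 for evm_009741, 0.0241 and 0.735 for MSTRG.19759, and 0.00641 and 0.413 for MSTRG.19777. In MSTRG.19759 the groups overlapped, with 14462, 1098 and 447 FPKM in the Eβf group against 6340, 10529 and 10432 FPKM in the control. The genes of this paragraph were named after their values were seen, apart from MSTRG.19777.

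The 3 steadiest members differed by 1.46 to 1.54 times between their highest and lowest libraries. The ratio of the highest to the lowest library was under 2 in 22 members, and its median over the 100 members was 3.57. Of the 22, 12 had all Eβf libraries above all control libraries, as did 12.8% of all rows tested. In the other 10 the groups overlapped. evm_011425 had FPKM values of 2472, 3588 and 3173 in Eβf replicates 1 to 3, against 3395, 2463 and 2499 in control replicates 1 to 3, a ratio of 1.46. In evm_000816 the FPKM was 6463, 7334 and 6983 in the Eβf group against 6824, 5544 and 4842 in the control, a ratio of 1.51. evm_008498 ran from 2595 to 3998 FPKM, a ratio of 1.54. The groups overlapped in all 3. The median SD within groups was 0.54 on the log2 scale in the members and 0.63 in all rows tested.

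At the other end, the ratio was over 10 in 29 members and over 100 in 9, with members at 0 in a library counted in. In 4 members control replicate 3 held over 80% of the FPKM summed over the 6 libraries. MSTRG.20527 had FPKM values of 21.99, 4.04 and 2.51 in Eβf replicates 1 to 3, had a listed value of 0 in 2 control libraries, replicates 1 and 2, and reached 16039.8 in control replicate 3. evm_012359 had 99.9, 131 and 76.3 FPKM in the Eβf group against 304, 253 and 24534 FPKM in the control. MSTRG.19777 had 137, 135 and 57.9 FPKM in the Eβf group against 1479, 873 and 40736 FPKM in the control. With evm_011557, named after its values were seen, these 4 took 6.11% of the FPKM of control replicate 3 and 0.0141% to 0.151% of that of the other libraries. None of the 4 was among the 100 most abundant genes when control replicate 3 was left out.

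A further 2 members, named after their values were seen, were near 0 in some libraries and abundant in others, in both groups. evm_004690 had FPKM values of 1.00, 13735 and 13962 in Eβf replicates 1 to 3, against 1.20, 0.82 and 15689 in control replicates 1 to 3. evm_007532 was high in the same 3 libraries, with 1.61, 7559.7 and 6836 FPKM in the Eβf group against 9.72, 3.403 and 4703 FPKM in the control. The log2 fold changes of these 2 were 4.19 (SE 4.44) and 3.08 (SE 3.64), and neither passed (limma adjusted p of 0.721 and 0.747). MSTRG.11989, chosen in the same way, was low in 2 libraries of the Eβf group, with FPKM values of 27.4, 5118 and 0 in Eβf replicates 1 to 3, against 11128, 6319 and 6300.4 in control replicates 1 to 3.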

How the data were processed

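RNA-Seq of 3 Eβf and 3 solvent control libraries was used. Per the processing notes and methods, the authors mapped reads by HISAT2, quantified genes by StringTie and deposited FPKM for every gene. For both tools the version, and for the genome the build, is not given in the sources used here. A line of further library codes under the header was not used. Members were chosen by mean FPKM, and the members and the lists were chosen with earlier results of these data known. Rows with FPKM of 1 or more in at least 3 libraries were tested as log2(FPKM + 1), with a pseudocount of 1, in limma 3.58.1 (R 4.3.3) with a mean-variance trend, two-sided, with Benjamini-Hochberg adjustment over all rows and a threshold of 0.05. The study tested read counts, which the table does not hold. Shares were compared by exact permutation over 20 arrangements. The fit was also run on simulated rows drawn independently of each other. Shifts shared by many genes of a library were not simulated, so that run does not cover them. FPKM holds no counts, so counting error was not computed.

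Named genes were the 10 most abundant members, the 2 called members with the highest positive fold changes and the 2 with the lowest negative ones (none was called lower), ranks 100 and 101, the 3 members most concentrated in 1 library, the 3 steadiest and any member with qPCR primers. The other called members and the members with consecutive ID numbers were named after their values were seen. Alternatives were other pseudocounts, filters, scalings, a weight per library, no trend, identical values counted once, the replicate number as a block, other choices of members and libraries left out. Choosing members by the Eβf mean was added after seeing the data. Python 3.11.15 with pandas 2.3.3 and numpy 2.4.6 made the tables, and matplotlib 3.10.9 drew the figures.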

Additional observations from a re-analysis of the deposited data

How the results depend on the processing

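The 9 members higher after Eβf (1.53% of all rows) became 6 with a pseudocount of 0.1 (0.905%) and 1 with 0.01 (0.285%). No filter on low values gave 0 (0.0128%), and a mean FPKM of 0.1 or more gave 1 (0.104%). Median-of-ratios scaling gave 3 (1.82%), scaling to the total outside the members 5 (1.79%) and a weight per library 48 (16.2%). Without both libraries numbered 3 the count was 1 (0.779%), and with 1 library left out 0 to 8 (0.00838% to 2.02%). All 9 stayed with quantile normalization (1.54%), a mean FPKM of 5 or more (2.42%) and identical values counted once (1.42%). With no mean-variance trend 6 stayed (1.42%). The count of 0 lower members became 22 with a weight per library (16.9% of all rows). With 1 library left out it was 0 to 3 (0.00838% to 1.16% of all rows). With the replicate number as a block, 0 members were higher and 0 lower, and 0 of all rows passed by limma. Deviations from the group means had correlations of 0.15, -0.33 and -0.16 between same-numbered libraries, and of -0.13 to 0.32 between differently numbered ones. Deviations within a group sum to 0, so these values depend on each other and cannot settle a batch shared by number. The numbers were not taken as pairs. The 42 members above the control became 16 with median-of-ratios scaling (13.1% of all rows), 16 with scaling to the total outside the members (10.3%) and 28 with quantile normalization (10.4%). The difference in the share of the 100 members was -9.50 to -3.00 percentage points with 1 library left out and 1.76 with members by the Eβf mean. That of the 10 most abundant was -9.97 to -3.95 with 1 library left out and -13.11 with members by the control mean. Choosing members by the mean of 1 group favours the share of that group, so these shifts were built into the choice. Fewer samples or more rows in the adjustment are part of some alternatives. Beyond that, the cause was not tested. The direction of the 19 fold changes named for the most abundant and the called members held under the 19 alternatives, except MSTRG.19760 at 0 with quantile normalization, which gives the top gene of every library the same value. FPKM without counts limits what can be said of low levels.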

Other observations

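A total of 87 genes outside the members were among the 100 most abundant genes of at least 1 library, 52 of them in 1 library, 26 in 2 and 9 in 3. They numbered 16, 21 and 21 in Eβf replicates 1 to 3, against 24, 23 and 26 in control replicates 1 to 3. The highest of them in each Eβf library were MSTRG.11990 in replicate 1, MSTRG.22409 in replicate 2 and evm_013328 in replicate 3, at 5083, 4764 and 8774 FPKM. In the control they were evm_000473, MSTRG.2021 and evm_006669, at 5189, 5824 and 11772 FPKM. evm_013328, ranked 119 by mean FPKM, had 1149, 2704 and 8774 FPKM in Eβf replicates 1 to 3, against 75.1, 69.8 and 161 FPKM in control replicates 1 to 3.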
